A study of Mus musculus with 12 samples.

Results

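The cholesterol synthesis enzymes Hmgcs1, Idi1, Fdps, Fdft1, Sqle, Lss and Cyp51 were examined in mouse testis. They were chosen by gene symbol, with earlier results of these data known. They are 7 of the 20718 genes of the expression table, where all 7 symbols were found. The RNA came from whole testes of male mice of a strain given as IRC in the labels and as ICR in the study's methods, whose testes were injected with lentivirus when the animals were juvenile and were collected once they were adult. The 12 libraries fall into 4 groups of 3. F0_5251KD received a mix of viruses carrying shRNAs against the long non-coding RNA lncRNA5251, built on the LV3 backbone, and F0_3NC received the LV3 control virus. F0_5251OV received a virus carrying the full lncRNA5251 on the LV5 backbone, and F0_5NC received the LV5 vector. The study's question was what a lower or higher level of lncRNA5251 does to the testis. The sources used here name neither the promoter of the virus nor the testis cells it entered, and no group of uninjected mice was analysed. The labels do not state that replicates are different mice, so the p-values measure the spread between libraries. No batch is named, and the backbone cannot be told apart from any batch in which the LV3 and LV5 groups were handled.

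Cholesterol is built from acetyl-CoA through mevalonate, isoprenoid pyrophosphates, squalene and lanosterol. When membrane sterol is low, the transcription factor SREBP-2, the product of Srebf2, is carried out of the endoplasmic reticulum by Scap, is cut, and raises transcription of most enzymes of the pathway. Insig1 holds the complex back when sterol is plentiful. In the testis, Leydig cells use cholesterol to make testosterone, and germ cells and Sertoli cells also make sterols, some of them meiosis-activating intermediates made by Cyp51. SREBP-2 acts on many promoters together with NF-Y, which binds the letters CCAAT, and Sp1, which binds GC-rich boxes.

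Promoter sequences were looked at because the 7 genes are known to share these factors. RefSeq promoters of the mouse genome build GRCm38.p6, each running from 250 bases before to 50 bases after a start of transcription, were found for 4 of the 7 genes, namely Hmgcs1, Idi1, Lss and Cyp51. The 5 letters CCAAT, or ATTGG on the other strand, occurred in 4 of these 4 promoters and in 37.4% of the 32851 promoters searched. Bases are counted from that start, which is the start of the gene for Hmgcs1, Idi1 and Cyp51 and lies 40 bases into the gene, at chr10:76531605, for Lss. The windows below show the copy nearest to that start among those before it, and for Idi1 also the next one, on the strand of the gene with the match in capitals. They lie at chr13:119690296-119690320 for Hmgcs1, at chr13:8885582-8885606 and chr13:8885551-8885575 for Idi1, at chr10:76531533-76531557 for Lss and at chr5:4104712-4104736 on the minus strand for Cyp51.
Hmgcs1, from base -45: cccgcctctcATTGGctgaaagcgg
Idi1, from base -14: ccaaggtgccATTGGctggcgaccg
Idi1, from base -45: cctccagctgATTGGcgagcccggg
Lss, from base -62: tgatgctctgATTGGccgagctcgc
Cyp51, from base -29: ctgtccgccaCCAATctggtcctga

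Hmgcs1 held further copies at bases -237, -176 and 11 from its start. The Sp1 letters GGGCGG, or CCGCCC on the other strand, also occurred in 4 of the 4 promoters, against 35.7% of all promoters. The matches lay at bases -92, -24 and 33 for Hmgcs1, -166 and -127 for Lss, -69 for Idi1 and -135 for Cyp51. These 2 windows show, in capitals, the match nearest to the start among those before it. They are of the 2 genes that later differ most between the backbones. Whether Sp1 matches bear on that difference was not tested. The windows lie at chr13:119690317-119690342 for Hmgcs1 and at chr10:76531468-76531493 for Lss.
Hmgcs1, from base -24: gcggatcgggGGGCGGgcgctcccga
Lss, from base -127: tcgcggcgtcGGGCGGccctgcgccc

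The classical sterol response element, searched on both strands with 1 free position, was found in none of the 4 promoters and in 0.234% of all promoters. None of the 4 held the E-box CACGTG, found in 7.15% of all promoters, or the cyclic AMP response letters TGACGTCA, found in 1.79%. Such matches describe letters and do not locate a bound factor.

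The libraries held between 15431383 and 16355720 estimated reads assigned to genes, and their scaling factors lay between 0.97 and 1.078. Levels are given as CPM, the counts of a gene relative to the scaled size of its library, and the length-scaled FPKM is used only where genes are compared with each other. Of the 20718 genes, 16296 passed the filter on low counts, and 7 of the 7 enzymes were among them. Markers of late germ cells, such as the protamines, were abundant in all 12 libraries, with a summed level of 23040 to 29850 CPM for 10 elongated spermatid genes, as the label testis requires. RNA of the epididymis, the organ beside the testis, was found in most LV5 libraries. Crisp1, a secreted epididymal protein, was at 9.77, 93.8 and 89.9 CPM in F0_5NC and at 63.6, 45.2 and 0.194 CPM in F0_5251OV, against 0.322, 1.22 and 5.95 CPM in F0_3NC and 0.0639 to 0.127 CPM in F0_5251KD. Some of the results that rest on these libraries are therefore also given below without the 4 libraries over 40 CPM of Crisp1. The limit was set after the data had been seen. It leaves 1 library each of F0_5NC and F0_5251OV, whose spread is taken to be like that of the other groups. The F0_5NC library that is kept still held 9.77 CPM of Crisp1, more than any LV3 library. lncRNA5251 itself was not analysed here, so the knockdown and the overexpression were not checked against their labels.

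Per length, the 7 enzymes were well expressed. Fdft1 was at 122 FPKM on average over the 12 libraries (113 to 128), a level above that of 95.4% of genes. Fdps followed at 79.3 FPKM (69.9 to 90.9). The ranges of these top genes did not overlap with each other or with those below, except that the highest Hmgcs1 library, at 76.7 FPKM, reached into the Fdps range. Sqle at 50.5 FPKM (43.2 to 58.5) and Hmgcs1 at 49.2 FPKM (27.4 to 76.7) could not be ordered, since their ranges overlapped. Cyp51 at 32.9 FPKM (25.7 to 43.5) and Idi1 at 31.1 FPKM (17.9 to 57.5) overlapped as well. Lss was the lowest at 6.49 FPKM (3.32 to 11.1), below every library of the other enzymes and still above 61.4% of genes.

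The enzymes also differed in how much they varied. The highest library of Idi1 was 3.10 times its lowest in CPM, that of Lss 2.82 times and that of Hmgcs1 2.65 times. Cyp51 spanned 1.63 times and Sqle 1.40 times. Fdps and Fdft1 both spanned 1.25 times, so the most abundant enzymes of the set were also the steadiest.

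Hmgcs1, the cytosolic HMG-CoA synthase, makes HMG-CoA, a precursor of mevalonate, and lies at chr13:119690351-119708260 on the plus strand (gene 208715). Its level was 198.6, 228.1 and 163.5 CPM in F0_3NC and 254.7, 182.0 and 207.8 CPM in F0_5251KD. In the LV5 groups it was 112.5, 108.5 and 123.4 CPM in F0_5NC and 181.8, 142.4 and 96.0 CPM in F0_5251OV. The 6 LV3 libraries all lay above the 3 F0_5NC libraries, and F0_5251OV held both the lowest library of all and a library level with the lowest F0_5251KD one.

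Idi1 interconverts the 2 smallest isoprenoid pyrophosphates and lies at chr13:8885606-8892396 on the plus strand (gene 319554). It was at 101.4, 155.8 and 83.8 CPM in F0_3NC and at 79.5, 66.2 and 97.0 CPM in F0_5251KD. In F0_5NC it was at 76.0, 50.2 and 103.4 CPM, and in F0_5251OV at 80.6, 51.1 and 75.2 CPM. The groups of Idi1 overlapped, except that the F0_3NC libraries lay above all of F0_5251OV, and 1 library, replicate 2 of F0_3NC, stood well above the other 11. Its counts were not whole numbers in 12 of 12 libraries, as when reads are divided between genes of like sequence, so its values are uncertain.

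Fdps joins those units into farnesyl pyrophosphate, the branch point to prenylated proteins, and lies at chr3:89093588-89101967 on the minus strand (gene 110196). Its level was 91.6, 89.2 and 101.2 CPM in F0_3NC, 101.2, 95.8 and 89.0 CPM in F0_5251KD, 80.7, 80.7 and 85.1 CPM in F0_5NC, and 85.6, 90.8 and 81.7 CPM in F0_5251OV. The 12 values spanned little, with every F0_5NC library below every LV3 library.

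Fdft1, squalene synthase, commits farnesyl pyrophosphate to sterols and lies at chr14:63145150-63181687 on the minus strand (gene 14137). It was at 462.5, 435.1 and 435.1 CPM in F0_3NC, at 431.2, 433.7 and 414.1 CPM in F0_5251KD, at 373.7, 421.5 and 439.3 CPM in F0_5NC, and at 455.0, 449.2 and 468.3 CPM in F0_5251OV. The 3 F0_5251OV libraries lay above all F0_5NC and F0_5251KD libraries, an order seen in none of the other enzymes. As with Idi1, its counts were not whole in 12 of 12 libraries, and its values are uncertain for the same reason.

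Sqle, squalene epoxidase, carries out the first oxygen-dependent step and lies at chr15:59315092-59331193 on the plus strand (gene 20775). It was at 137.1, 151.4 and 133.8 CPM in F0_3NC, at 135.3, 144.1 and 138.1 CPM in F0_5251KD, at 108.2, 121.0 and 134.3 CPM in F0_5NC, and at 142.8, 123.1 and 116.9 CPM in F0_5251OV. Only replicate 3 of F0_5NC and replicate 1 of F0_5251OV reached into the range of the LV3 libraries.

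Lss, lanosterol synthase, closes the sterol rings and lies at chr10:76531565-76557139 on the plus strand (gene 16987). Its level was 36.3, 48.0 and 43.7 CPM in F0_3NC, 58.3, 46.6 and 40.9 CPM in F0_5251KD, 26.7, 25.1 and 26.8 CPM in F0_5NC, and 38.0, 30.8 and 20.7 CPM in F0_5251OV. Each LV3 group lay clear of F0_5NC, and replicate 1 of F0_5251OV was the single LV5 library to reach the lowest LV3 library.

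Cyp51 removes a methyl group from lanosterol and lies at chr5:4080674-4104697 on the minus strand (gene 13121). It was at 150.8, 182.3 and 160.4 CPM in F0_3NC, at 150.5, 165.4 and 136.8 CPM in F0_5251KD, at 114.5, 115.2 and 112.3 CPM in F0_5NC, and at 143.9, 124.3 and 112.1 CPM in F0_5251OV. The 3 F0_5NC libraries were nearly equal and lay below all LV3 libraries, while F0_5251OV ran from the F0_5NC level into the F0_5251KD range.

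**Figure D1:**
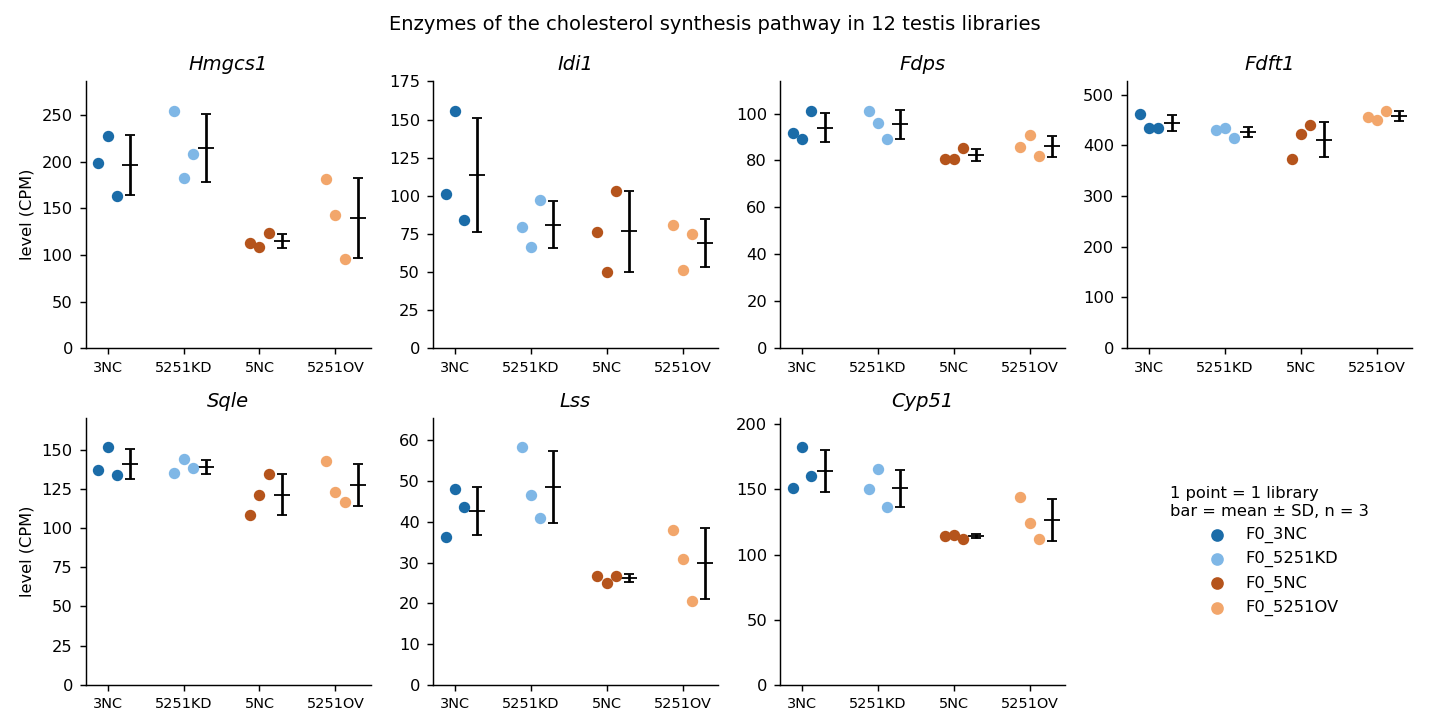
Level of each enzyme in CPM (vertical axes, from 0) in the 12 libraries, 1 point per library, by group, with the mean and the SD over n = 3 as a bar. Hmgcs1, Lss and Cyp51 sit higher in F0_3NC than in F0_5NC without overlap, for Cyp51 at 150.8 to 182.3 CPM against 112.3 to 115.2 CPM. Fdps does not overlap between these groups either, but by less, at 89.2 to 101.2 CPM against 80.7 to 85.1 CPM. Fdft1 sits at nearly one height in all 4 groups.

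Knockdown of lncRNA5251 was compared with its own LV3 control first. None of the 7 enzymes was called in F0_5251KD against F0_3NC at an adjusted p of 0.05 (edgeR's quasi-likelihood test with Benjamini-Hochberg adjustment over the 16296 genes), where 4 genes of all tested, or 0.0245%, were. None of the 7 was at an unadjusted p under 0.05, as 4.74% of all genes were. DESeq2 made 20 calls (0.123%), none of them an enzyme of the set. The median log2 fold change of the 7 was -0.02, against -0.004 over all genes tested, with 3 above and 4 below 0 where 49.1% of all genes were above 0. The largest difference was that of Idi1, -0.49 on the log2 scale (SE 0.265, 95% interval -1.06 to 0.08, adjusted p = 0.897), and its groups overlapped. For Hmgcs1 the log2 fold change was 0.13, for Lss 0.19 and for Cyp51 -0.12 (interval -0.34 to 0.09). The narrowest intervals were those of Fdft1, -0.21 to 0.10, and Fdps, -0.14 to 0.18 at a log2 fold change of 0.02, and both included 0. Fdft1, at -0.06, was the only enzyme whose libraries did not overlap, all 3 knockdown libraries lying below the control ones, an arrangement in either direction seen in 11.8% of all genes. In a whole tissue, fewer cells of a type and less RNA per cell cannot be told apart, here and in each comparison that follows.

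Overexpression was compared with the LV5 vector. No enzyme was called in F0_5251OV against F0_5NC by edgeR, and none had an unadjusted p under 0.05. The edgeR test called 0 genes in all (0.0%), while for 1429 (8.77%) the unadjusted p was under 0.05. DESeq2 made 28 calls (0.172%), none of them an enzyme of the set. The log2 fold changes were above 0 for 6 of the 7, where 49.5% of all genes were, with a median of 0.15 against -0.002 over all genes, and Idi1 was at -0.15. Fdft1 differed by 0.15 on the log2 scale with no overlap between groups (unadjusted p = 0.0529 and adjusted p = 0.57 by edgeR), and 7.33% of all genes had every F0_5251OV library above every F0_5NC one. Hmgcs1 stood at 0.29, Lss at 0.19, Cyp51 at 0.15, Sqle at 0.08 and Fdps at 0.07. The 3 libraries of F0_5251OV were spread more widely than those of F0_5NC for Hmgcs1, with 140.1 ± 43.0 CPM against 114.8 ± 7.71 CPM (SD, n = 3), for Lss, with 29.8 ± 8.69 CPM against 26.2 ± 0.957 CPM (SD, n = 3), and for Cyp51, with 126.8 ± 16.1 CPM against 114.0 ± 1.51 CPM (SD, n = 3). In Hmgcs1, Lss and Cyp51 replicate 1 was the highest and replicate 3 the lowest F0_5251OV library. Without the 4 libraries high in Crisp1, Hmgcs1 was at -0.26, Lss at -0.40, Cyp51 at -0.06 and Fdps at -0.02, each with its sign turned and none called, with 1 library on either side.

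The effects of knockdown and overexpression were compared with each other in the same edgeR fit, as the difference between the 2 log2 fold changes. It ran from -0.34 for Idi1 to 0.0 for Lss, with Cyp51 at -0.28 and Fdft1 at -0.21, and no enzyme was called or had an unadjusted p under 0.05 (adjusted p = 0.444 to 1.0). The edgeR test called 0 genes in all (0.0%), although for 11.3% the unadjusted p was under 0.05, and 50.4% had a difference above 0. DESeq2 made 35 calls in all (0.215%), no enzyme of the set among them. Without the 4 libraries high in Crisp1 the difference ran from -0.44 for Idi1 to 0.60 for Lss (SE 0.309), with Hmgcs1 at 0.40 and Fdft1 at -0.34, and no enzyme was called (adjusted p = 0.3 to 0.938, edgeR).

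**Figure D2:**
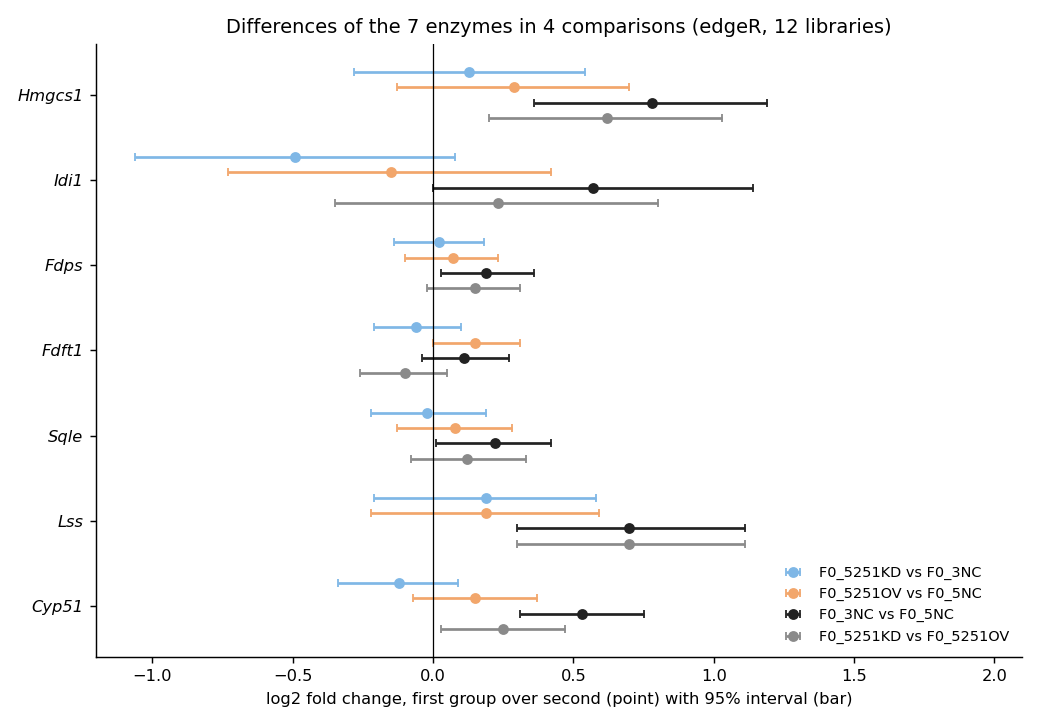
Log2 fold change of the 7 enzymes in 4 comparisons (horizontal axis), from edgeR over the 12 libraries, with the 95% interval as a bar. The intervals of knockdown and of overexpression against their own controls include 0 for all 7 enzymes, and those of Hmgcs1, Lss and Cyp51 lie above 0 where an LV3 group is set against an LV5 group, for Cyp51 at 0.31 to 0.75 between the 2 controls.

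The larger differences lay between the backbones. In the 2 control groups, which received no lncRNA5251 construct, all 7 enzymes had a higher mean in F0_3NC than in F0_5NC, with a median log2 fold change of 0.53 against 0.0 over all genes, of which 50.1% were higher. Cyp51 rose by 0.53 on the log2 scale, or 1.44-fold (SE 0.102, 95% interval 0.31 to 0.75, adjusted p = 0.049, edgeR), and was the 1 enzyme called, where 0.331% of all genes were called and 0.276% were called as higher. The call was marginal: it was lost when any 1 of 10 of the 12 libraries was left out (adjusted p = 0.0537 to 0.18, edgeR), namely each of the 3 libraries of F0_3NC, of F0_5NC and of F0_5251KD and replicate 2 of F0_5251OV, and was kept only without replicate 1 or replicate 3 of F0_5251OV. Its direction and size were kept in all of these, at 0.45 to 0.60.

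Hmgcs1 differed by 0.78 on the log2 scale between the controls (SE 0.192, 95% interval 0.36 to 1.19, adjusted p = 0.164, edgeR), and Lss by 0.70 (SE 0.188, 95% interval 0.30 to 1.11, adjusted p = 0.207, edgeR). Neither passed the threshold, although both sizes were above that of Cyp51, and neither overlapped between groups. Without replicate 3 of F0_5251OV, whose library is not part of the comparison but enters the estimate of spread, Hmgcs1 was called at an adjusted p of 0.0376 (edgeR). By DESeq2, which called 0.847% of all genes, Cyp51, Hmgcs1 and Lss were called, with Hmgcs1 at an adjusted p of 0.0134 and Lss at 0.0438. Fdps, at 0.19, did not overlap either, which makes 4 of 7 enzymes with every F0_3NC library above every F0_5NC library, against 9.59% of all genes. In all, 5 of the 7 had an unadjusted p under 0.05, where 6.41% of all genes had one and were higher. The set was chosen with earlier results of these data known, so these shares, and those that follow, only describe it. Idi1 stood at 0.57 (adjusted p = 0.421), Sqle at 0.22 (adjusted p = 0.404) and Fdft1 at 0.11 (adjusted p = 0.536), all by edgeR and all with overlapping groups.

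The 2 treated groups give the same contrast of backbones in other libraries, though with opposite treatments. No enzyme was called in F0_5251KD against F0_5251OV by edgeR, where 0.295% of all genes were called, and 3 had an unadjusted p under 0.05 and were higher, as 3.54% of all genes were. Lss differed by 0.70 (SE 0.186, 95% interval 0.30 to 1.11, adjusted p = 0.268, edgeR) and Hmgcs1 by 0.62 (SE 0.191, 95% interval 0.20 to 1.03, adjusted p = 0.447, edgeR), and for both the groups did not overlap, as in 6.82% of all genes, though for Hmgcs1 the nearest libraries were at 182.0 and 181.8 CPM. DESeq2, which called 0.632% of all genes, called Lss alone of the 7, at an adjusted p of 0.0432. Cyp51 was at 0.25, with overlapping groups. Idi1 was at 0.23, Fdps at 0.15 and Sqle at 0.12. Fdft1 was at -0.10, with all 3 F0_5251KD libraries below the F0_5251OV ones. Groups that did not overlap in either direction were found in 13.1% of all genes. The median of the 7 was 0.23 against -0.004 over all genes, and 6 of the 7 were above 0 where 48.6% of all genes were.

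When both LV3 groups were set against both LV5 groups in the same fit, an arrangement added after the data had been seen, 3 of the 7 enzymes were called where 0.706% of all genes were. Hmgcs1 rose by 0.70 (adjusted p = 0.0301), Lss by 0.70 (adjusted p = 0.0239) and Cyp51 by 0.39 (adjusted p = 0.0212) in the LV3 libraries (edgeR). Fdps at 0.17 (adjusted p = 0.393), Sqle at 0.17 (adjusted p = 0.675) and Idi1 at 0.40 (adjusted p = 0.795) did not pass (edgeR). Fdft1, at 0.004 (adjusted p = 0.996, edgeR), was at nearly the same level on both backbones.

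The differences between backbones were of similar or larger size without the 4 libraries high in Crisp1, though no enzyme was called by edgeR in these smaller groups. Between the controls, with replicate 1 of F0_5NC alone against F0_3NC, Hmgcs1 was at 0.78, Lss at 0.65 and Cyp51 at 0.50 (adjusted p = 0.157, edgeR). Between the treated groups the remaining library, replicate 3 of F0_5251OV, had next to no Crisp1 and was the lowest of all 12 in Hmgcs1 and Lss. There Hmgcs1 stood at 1.18 (SE 0.224), Lss at 1.25 (SE 0.232) and Cyp51 at 0.44 (SE 0.142) on the log2 scale, none of them called.

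The other enzymes of the pathway were described by the same fits. Of 14 further synthesis enzymes reported here, 12 were above 0 between the controls, with a median log2 fold change of 0.12, and 13 were above 0 between the treated groups, with a median of 0.22.

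Msmo1 acts at a later step than Cyp51 to strip further methyl groups. It stood at 0.98 between the controls (adjusted p = 0.164) and at 1.03 between the treated groups (adjusted p = 0.167, edgeR). Its LV3 libraries lay at 62.8 to 94.7 CPM and its LV5 libraries at 21.6 to 48.1 CPM, without overlap. Against their own controls none of these enzymes was called. Mvd, the mevalonate decarboxylase, was at 0.36 on knockdown and at 0.44 in the difference of effects (adjusted p = 0.582, edgeR).

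Of the 13 regulators, 3 were above 0 between the controls and 9 between the treated groups, so the regulators did not move as a block. Insig1, itself a target of SREBP-2, was the one called. Its level was 51.7, 63.5 and 47.6 CPM in F0_3NC and 65.5, 51.3 and 50.2 CPM in F0_5251KD, against 26.8, 22.2 and 21.9 CPM in F0_5NC and 25.9, 23.5 and 16.7 CPM in F0_5251OV. The 2 sets of 6 libraries lay far apart. Insig1 rose by 1.20 between the controls (SE 0.165, adjusted p = 0.00422, edgeR) and by 1.33 between the treated groups (SE 0.166, adjusted p = 0.00142, edgeR), and was called in both without any 1 library. Without the 4 libraries high in Crisp1 it stood at 0.99 between the controls (adjusted p = 0.1, edgeR), where the call was lost, and at 1.75 between the treated groups (adjusted p = 0.0416, edgeR). Against their own controls the values were 0.04 on knockdown and -0.10 on overexpression. Without those 4 libraries Insig1 was at -0.71 on overexpression (SE 0.261, adjusted p = 0.309, edgeR), and its difference of effects moved from 0.13 to 0.76 (adjusted p = 0.318, edgeR).

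Srebf2 itself, whose protein is set mainly by processing, was at 41.2, 31.8 and 38.4 CPM in F0_3NC, at 50.4, 42.9 and 38.2 CPM in F0_5251KD, at 37.5, 32.3 and 34.3 CPM in F0_5NC, and at 25.8, 30.7 and 34.8 CPM in F0_5251OV. The controls overlapped, with a log2 fold change of 0.10, and the treated groups did not, with 0.53 (adjusted p = 0.244, edgeR). Srebf1, the paralogue that drives fatty acid genes, was at -0.56 between the controls (adjusted p = 0.273, edgeR), at 0.45 on knockdown and at -0.52 on overexpression, with a difference of effects of 0.98 (adjusted p = 0.352, edgeR). Scap, the escort of both, was at 0.25 on knockdown and at -0.31 on overexpression, with a difference of 0.56 (adjusted p = 0.394, edgeR).

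Of 13 uptake and transport genes reported here 12 were tested, of which 3 were above 0 between the controls and 7 between the treated groups. Those named here gave values of both signs. Npc2, which hands cholesterol out of lysosomes, was at -0.39 between the controls and at -0.28 on overexpression, and Mylip, a ubiquitin ligase, at -0.85 between the controls and at 0.75 on knockdown (difference of effects 1.15). Lrp1, a large endocytic receptor, was at 0.37 between the treated groups and at -0.45 on overexpression (difference of effects 0.75). None of these passed the threshold, and Mylip was low, with group means of 1.14 to 2.06 CPM.

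Storage and efflux genes were fewer, with 8 of 11 tested and none called in any of the 5 comparisons by edgeR. Apoe, which carries lipid out of cells, was at -0.83 between the controls, 0.51 between the treated groups, 0.56 on knockdown and -0.78 on overexpression, and its difference of effects was 1.34 (adjusted p = 0.388, edgeR). Lcat, the plasma esterifying enzyme, was at 0.54 between the controls, at low means of 2.23 CPM in F0_3NC and 1.52 CPM in F0_5NC. Ch25h, the cholesterol 25-hydroxylase, was at -2.08 on knockdown (SE 0.841, adjusted p = 0.897, edgeR). Its level was near the floor, with means of 0.656 CPM in F0_3NC and 0.150 CPM in F0_5251KD. Cyp27a1, the sterol 27-hydroxylase, was at 0.41 between the treated groups and at -0.41 on overexpression, and Abca1, an efflux pump, had a difference of effects of 0.77.

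Genes of steroid hormone synthesis were not called in any of the 5 comparisons, with 6 of 12 above 0 between the controls and 11 of 12 between the treated groups. Star, which brings cholesterol into mitochondria, was at 235.4, 389.0 and 275.6 CPM in F0_3NC, at 330.6, 191.6 and 294.8 CPM in F0_5251KD, at 203.2, 192.4 and 171.0 CPM in F0_5NC, and at 208.3, 173.2 and 147.4 CPM in F0_5251OV. The controls did not overlap, with a log2 fold change of 0.67 (adjusted p = 0.281, edgeR), and the treated groups did, with 0.63 (adjusted p = 0.501, edgeR). Star was at -0.14 on knockdown and at -0.10 on overexpression. Fdx1, the electron donor of side-chain cleavage, was at 0.51 between the controls (adjusted p = 0.167, edgeR), and Cyp11a1, the side-chain cleavage enzyme, at 0.95 between the treated groups (adjusted p = 0.0901, edgeR). On overexpression Cyp11a1 was at -0.37 and Hsd3b1, the next enzyme, at -0.37. On knockdown Hsd3b1 was at 0.33 and Hsd17b3, which makes testosterone, at 0.39. The differences of effects were 0.68 for Cyp11a1 and 0.70 for Hsd3b1 (adjusted p = 0.42 for each, edgeR).

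Fatty acid synthesis genes, 10 of 10 tested, were not called either. Me1, a source of NADPH, was at 0.29 and Fads1, a desaturase, at 0.48 between the controls, and Fasn, the fatty acid synthase, was at 0.38 and Acly, which makes cytosolic acetyl-CoA, at 0.35 between the treated groups. Fasn was at 0.28 on knockdown and at -0.30 on overexpression (difference of effects 0.58), Acly at -0.23 on overexpression (difference of effects 0.35), and Scd2, another desaturase, at 0.22 on knockdown.

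**Figure D3:**
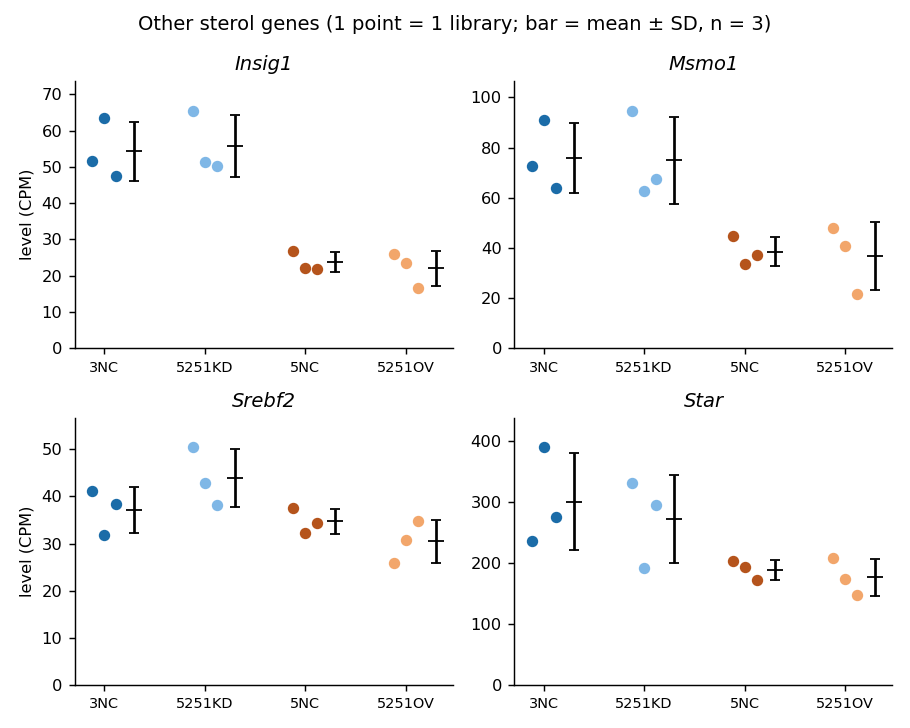
Level in CPM (vertical axes, from 0) of 4 other sterol genes in the 12 libraries, 1 point per library, with the mean and SD over n = 3 as a bar. Insig1 and Msmo1 have every LV3 library above every LV5 library, with Insig1 at 47.6 to 65.5 CPM against 16.7 to 26.8 CPM, and Srebf2 and Star overlap.

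Over both pairs of groups, Insig1 rose by 1.27 (adjusted p = 4.84e-05), Msmo1 by 1.0 (adjusted p = 0.0131) and Fdx1 by 0.45 (adjusted p = 0.0384) in the LV3 libraries by edgeR, in the arrangement added after the data had been seen.

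**Figure D4:**
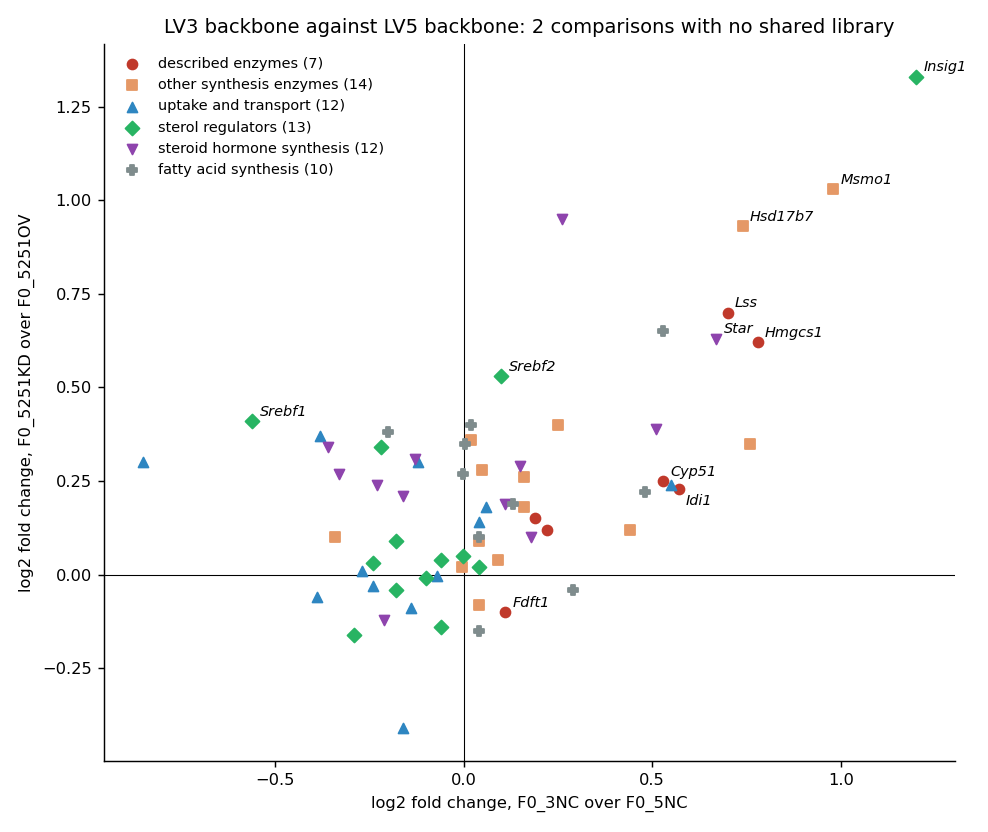
Log2 fold change of F0_5251KD over F0_5251OV (vertical) against that of F0_3NC over F0_5NC (horizontal) from edgeR, 1 point per gene, by list; the 2 comparisons share no library but are both between backbones. Insig1 at 1.20 and 1.33, Msmo1 at 0.98 and 1.03, and Hmgcs1 at 0.78 and 0.62 lie to the upper right, and Fdft1 is the 1 enzyme of the 7 below 0 on the vertical axis.

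Over the 12 libraries the 7 enzymes varied together to different degrees. These correlations are descriptions over 12 libraries that share 4 groups and 2 backbones. The 21 pairs of enzymes had a median Pearson's r of 0.54 on log2 CPM. Hmgcs1 and Lss were the closest pair, at r = 0.94, followed by Lss and Cyp51 at 0.88 and Hmgcs1 and Cyp51 at 0.84. Fdft1 was near 0 with most of the others, down to -0.0 with Lss, and Idi1 was at 0.13 with Fdps. Once each library's value was taken relative to the mean of its group, the median r was 0.14, and Hmgcs1 and Lss remained the closest pair at 0.82, while Fdps and Idi1 were at -0.42. The value of 0.82 drew mostly on F0_5251OV, with Hmgcs1 at 181.8, 142.4 and 96.0 CPM and Lss at 38.0, 30.8 and 20.7 CPM. Crisp1 was uneven in the same libraries, at 63.6, 45.2 and 0.194 CPM. Whether Hmgcs1 and Lss vary together within the other groups was not tested.

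**Figure D5:**
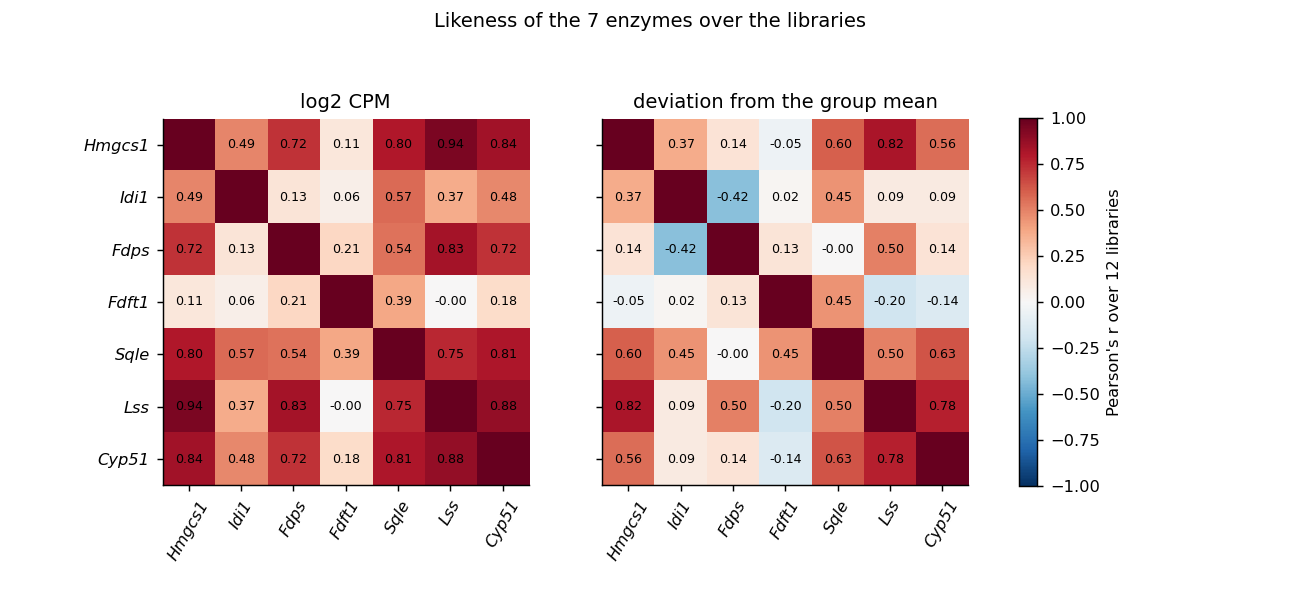
Pearson's r between the 7 enzymes over the 12 libraries, on log2 CPM (left) and on the deviation of each library from the mean of its group (right), with the colour running from -1 to 1. Hmgcs1, Lss and Cyp51 form the block of highest values on the left, at 0.84 to 0.94. Hmgcs1 with Lss is still at 0.82 on the right, a value that drew mostly on F0_5251OV.

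The genes most like the mean pattern of the 7 enzymes, out of 14989 genes outside the lists with at least 1 CPM on average, were Ifrd1 (r = 0.921), Klhl11 (0.921), Col12a1 (0.919), Vgll3 (0.911) and Smok2b (0.91), each over 12 libraries. Ifrd1 averaged 41.8 CPM in F0_3NC, 35.0 CPM in F0_5251KD, 19.9 CPM in F0_5NC and 23.7 CPM in F0_5251OV. Klhl11 ran from 27.1 CPM in F0_5NC to 31.9 CPM in F0_3NC, a narrow range that follows the same order of groups. Among the listed sterol genes reported here the likeness was highest for Stard4, a carrier of cholesterol between membranes (0.89), Sc5d, a late desaturase of the pathway (0.88), and Insig1 and Msmo1 (0.84 each). Srebf2 was at 0.28.

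Markers of testis cell types were summed beside these results. The 10 Leydig cell genes, of which 7 are also among the steroid genes above, summed to 2146 to 2456 CPM in F0_3NC and 1938 to 3231 CPM in F0_5NC, which overlapped, and to 2121 to 3232 CPM in F0_5251KD and 1584 to 2267 CPM in F0_5251OV. Between the controls 4 of the 10 were above 0 with 0 called, and between the treated groups 10 of 10 with 0 called. The 15 Sertoli cell genes were below 0 in 15 of 15 between the controls with 0 called, their sum lying at 1121 to 1419 CPM in F0_3NC and 1366 to 1978 CPM in F0_5NC, and above 0 in 14 of 15 between the treated groups. The 12 spermatocyte genes summed to 2790 to 3354 CPM in F0_3NC and 2489 to 2783 CPM in F0_5NC, without overlap, and to 2536 to 2819 CPM and 2729 to 3212 CPM in F0_5251KD and F0_5251OV. None of these 3 sums had a mean above both LV5 groups in both LV3 groups, as Hmgcs1 and Insig1 had. A sum can hide genes that differ from each other. Among the steroid genes, Star, Fdx1, Cyp11a1, Cyp17a1 and Por had both LV3 means above both LV5 means. The other steroid genes, such as Hsd3b1 and Hsd17b3, did not. Whether the share of Leydig cells differed between the backbones was not tested. Of all 11 lists, only the 6 epididymis genes followed the backbone in their means. These were 177.3 and 179.2 CPM in F0_3NC and F0_5251KD against 249.9 and 230.4 CPM in F0_5NC and F0_5251OV. Most of each sum was Cst8, which is also made in testis and did not follow the backbone. Cst8 was at 145 to 192 CPM in the LV3 libraries and at 125 to 200 CPM in the LV5 libraries. Crisp1, Spink8 and Adam7 were the genes of the list that were higher in most LV5 libraries. Spink8, an epididymal protease inhibitor, fell by 3.79 on the log2 scale in F0_3NC against F0_5NC (adjusted p = 0.0235, edgeR). Defb41 was at 0.0 to 0.487 CPM and Rnase10 at 1.59 to 5.29 CPM in the 12 libraries, and Adam7 reached 17.7 CPM in F0_5NC and 10.6 CPM in F0_5251OV against at most 0.0661 CPM in the LV3 libraries. Besides Spink8, the marker genes called were Plin1, an adipocyte lipid droplet protein, at -1.46 between the controls (adjusted p = 0.0219, edgeR), and Tagln, of smooth muscle, at 1.0 between the treated groups (adjusted p = 0.00455, edgeR). The part of other cell types in the differences was not tested beyond the values without the 4 libraries.

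One gene outside the lists, picked after its values were seen, separated the backbones more widely. Egr1, an immediate early transcription factor that responds within minutes to handling and signals, was at 47.1 to 54.3 CPM in F0_3NC and 92.3 to 115.0 CPM in F0_5251KD, against 3.30 to 5.99 CPM in F0_5NC and 3.17 to 3.64 CPM in F0_5251OV. It rose by 3.49 on the log2 scale between the controls (adjusted p = 2e-07, edgeR) and by 4.94 between the treated groups (adjusted p = 4.02e-09, edgeR). On knockdown against its own control, where none of the 7 enzymes was called, it rose by 1.07 (adjusted p = 0.0202, edgeR). Whether it and the sterol genes moved for a shared reason was not tested.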

How the data were processed

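RNA-seq was made from testis RNA of 12 samples. The authors deposited 1 table that holds, for each gene, estimated counts and FPKM values of the libraries, on mouse build mm10 per the labels. Per the study's methods, SOAPaligner placed the reads on reference genes, and the counter and the use of strand are not given in the sources used here. Counts were rounded, since 12.0% were fractional by more than 1e-06. The FPKM values deposited by the authors served to compare genes and for limma. Another 18 columns of values per sample matched no sample and 14 columns of means were not used. The test was edgeR 4.0.16 (TMM, filterByExpr, quasi-likelihood F, two-sided) in R 4.3.3, in 1 fit of 4 groups with Benjamini-Hochberg adjustment over 16296 genes and a threshold of 0.05. The SE of a fold change is its size divided by the root of F, and that of the difference of effects the root of the summed squares of both SEs. Alternatives were DESeq2 1.42.0, limma 3.58.1 on log2(FPKM + 1) and log2(FPKM + 0.1), other scaling and filters, the compared groups alone, a replicate block, each library left out and, chosen after seeing the data, 4 libraries left out and both pairs of groups together. Depth was even, so precision rests on 3 libraries a group. The script was tested on simulated data. The enzymes and gene lists were chosen with earlier results of these data known. Named were the 7 enzymes, any listed gene past the threshold, the 2 of smallest unadjusted p per list and comparison, Srebf2, Insig1 and Star, and the 5 genes most alike. Some listed genes are not reported here.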

Additional observations from a re-analysis of the deposited data

How the results depend on the processing

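Between the controls 1 enzyme of the 7 was called. The number was 3 by DESeq2 and 3 with both pairs of groups together, 1 with the compared groups alone (Hmgcs1 at an adjusted p of 0.0343, in place of Cyp51 at 0.0649), and 0 under upper-quartile scaling (Cyp51 at 0.0721), without a filter on low counts (0.0511), with a filter of 1 CPM in 3 libraries (0.0638), by limma on log2(FPKM + 1) (0.183) or log2(FPKM + 0.1) (0.18), and at an adjusted p under 0.01. Leaving out 1 library gave 0 to 2, the 2 without replicate 3 of F0_5251OV. Between the treated groups DESeq2 called 1 enzyme, where edgeR called 0. The median of the 7 between the controls, 0.53, ran from 0.277 (without replicate 2 of F0_3NC) to 0.595 with 1 library left out, and was 0.342 without replicate 2 of F0_5NC. Without the 4 libraries over 40 CPM of Crisp1 no enzyme was called, 0 of 7 between the controls, and on overexpression the median was -0.049 and Hmgcs1 -0.262, Fdps -0.015, Lss -0.403 and Cyp51 -0.064, and in the difference of effects Hmgcs1 was 0.397, Fdps 0.043 and Lss 0.598. Of 735 values of single enzymes under the alternatives, 25 changed sign, none of them called. Lss on overexpression was -0.002 by limma on log2(FPKM + 0.1). With 1 library left out, on knockdown Fdps ran from -0.027 to 0.077, Sqle from -0.051 to 0.04 and Hmgcs1 from -0.016 to 0.247. On overexpression Sqle ran from -0.014 to 0.163, Idi1 from -0.379 to 0.133 and Lss from -0.027 to 0.391. In the difference of effects Lss ran from -0.205 to 0.214, Fdps from -0.101 to 0.01 and Hmgcs1 from -0.37 to 0.073. Insig1 was called in both backbone comparisons in each alternative run other than that without those 4 libraries.

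The replicate numbers were checked for pairing: of 18 same-numbered pairs of libraries, 2 had deviations from the group means correlated above 0.1 (range -0.242 to 0.161), so the numbers were taken as names. With the replicate number as a block, 0 enzymes were called between the controls (Cyp51 at an adjusted p of 0.0537), and the calls over all genes were 50 between the controls and 40 between the treated groups, against 54 and 48 without it. On knockdown they were 2 against 4.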
